A study of Homo sapiens with 15 samples.

Results

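The proteasome genes described here are the protein-coding genes whose symbols begin with PSMA, PSMB, PSMC, PSMD or PSME followed by a number. The rule found 45 genes among the 61248 loci measured, and 42 of them were tested because they had 1 FPKM or more in 3 or more libraries, as did 14999 loci in all. FPKM is the number of fragments of a gene, divided by the length of the gene and by the depth of the library. The rule uses names and gene types, not measured values. A further 48 loci with such symbols were not protein-coding and were left out. Within the 45 genes there were 7 of the core alpha ring, 7 of the core beta ring, 3 immunoproteasome subunits (PSMB8, PSMB9 and PSMB10), 2 tissue-restricted core subunits (PSMA8 and PSMB11), 6 ATPases and 3 other subunits of the base of the regulatory cap, 8 of its lid, 3 chaperones of base assembly and 4 genes of other activators. The rule also takes in PSMC3IP and PSME3IP1, whose products are not proteasome subunits. PSMA2, PSMA8 and PSMB11 did not reach the testing level.

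The RNA came from NCI-H1975, a long-established line of human non-small cell lung cancer that carries a mutated epidermal growth factor receptor (EGFR). There were 5 groups of 3 libraries: cells named only as control, cells given almonertinib (an inhibitor of the EGFR kinase), cells given EGF (a ligand of the receptor), cells with the control siRNA (siNC) and cells with an siRNA against EGFR (siEGFR). The labels give no dose, time or transfection reagent and do not say whether replicates are separate cultures, so the p-values reflect library-to-library spread that could be technical. All groups are the same line.

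The proteasome degrades proteins tagged with ubiquitin. Its barrel-shaped core has outer rings of alpha subunits, which gate the entrance, and inner rings of beta subunits, of which PSMB5, PSMB6 and PSMB7 cut peptide bonds. In cells exposed to interferon gamma, PSMB8, PSMB9 and PSMB10 take the places of these catalytic subunits, which gives the immunoproteasome and alters the peptides available to MHC class I molecules. The regulatory cap recognises ubiquitin, removes it through the lid enzyme PSMD14 and unfolds the substrate with the ring of PSMC ATPases; PSME proteins form other caps that open the core without ubiquitin.

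The promoters of 5 members are shown because the immunoproteasome genes, their constitutive counterparts and the cap genes moved differently in these libraries. Each run is the RefSeq sequence, build GRCh38.p14, from 250 bases before to 50 bases after the first listed transcription start, read in the direction of the gene. Capitals mark matches, on either strand, to 4 short motifs chosen after the values were known. TGANNNNGC is a loose pattern that takes in the antioxidant response element bound by NRF1 and NRF2, so a match need not be such an element. GAAANNGAA is the interferon-stimulated response element, TGANTCA the AP-1 site and CCGGAAG a site of ETS factors. PSMB8 lies at chr6:32844630-32844929 on the minus strand and PSMB9 at chr6:32853942-32854241 on the plus strand, both in the MHC region. PSMB10 lies at chr16:67936801-67937100 and PSMB5 at chr14:23035171-23035470, both on the minus strand, and PSMD14 at chr2:161308175-161308474 on the plus strand.
PSMB8: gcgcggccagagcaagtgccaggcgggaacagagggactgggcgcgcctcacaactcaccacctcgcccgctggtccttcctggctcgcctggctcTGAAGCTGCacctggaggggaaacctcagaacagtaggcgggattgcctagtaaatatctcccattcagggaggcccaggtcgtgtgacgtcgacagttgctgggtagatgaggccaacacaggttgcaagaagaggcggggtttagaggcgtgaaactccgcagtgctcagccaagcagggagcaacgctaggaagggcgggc
PSMB9: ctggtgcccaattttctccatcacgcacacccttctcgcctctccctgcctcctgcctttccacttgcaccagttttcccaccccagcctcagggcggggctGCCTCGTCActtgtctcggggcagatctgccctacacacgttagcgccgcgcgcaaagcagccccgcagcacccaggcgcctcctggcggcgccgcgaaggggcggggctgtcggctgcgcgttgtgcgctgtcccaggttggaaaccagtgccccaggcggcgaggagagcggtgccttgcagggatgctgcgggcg
PSMB10: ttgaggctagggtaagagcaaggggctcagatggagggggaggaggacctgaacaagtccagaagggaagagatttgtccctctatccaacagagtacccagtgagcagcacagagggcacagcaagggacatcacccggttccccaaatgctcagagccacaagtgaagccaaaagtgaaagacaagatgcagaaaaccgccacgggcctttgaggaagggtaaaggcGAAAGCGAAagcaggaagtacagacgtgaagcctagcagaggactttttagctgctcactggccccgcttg
PSMB5: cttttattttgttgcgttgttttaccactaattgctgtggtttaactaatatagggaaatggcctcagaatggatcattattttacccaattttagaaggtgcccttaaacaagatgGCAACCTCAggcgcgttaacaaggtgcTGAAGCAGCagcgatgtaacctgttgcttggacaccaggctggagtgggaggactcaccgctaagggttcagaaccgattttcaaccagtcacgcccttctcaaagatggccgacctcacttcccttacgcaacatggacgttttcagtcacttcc
PSMD14: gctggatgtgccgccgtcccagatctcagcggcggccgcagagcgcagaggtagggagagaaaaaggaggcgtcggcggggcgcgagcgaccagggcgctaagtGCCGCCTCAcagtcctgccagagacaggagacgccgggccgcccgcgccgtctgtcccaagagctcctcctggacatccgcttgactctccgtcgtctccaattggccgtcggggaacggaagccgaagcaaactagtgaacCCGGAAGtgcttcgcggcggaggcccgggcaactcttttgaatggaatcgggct

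In these windows PSMB8 and PSMB9 each held 1 match to TGANNNNGC, PSMB10 held 1 match to GAAANNGAA from base -21 to base -13 before the start, PSMB5 held 2 matches to TGANNNNGC, and PSMD14 held 1 match to TGANNNNGC and 1 to CCGGAAG across the start, from base -4 to base 3. Promoters were matched by symbol for 40 of the 45 genes, and PSMA7, PSMB1, PSMB6, PSMB7 and PSMD4 did not match. Each of the 40 was counted once, at its first listed start, although together they have 49 listed windows. The shares over all promoters count every listed start of every gene, so the 2 kinds of share are not fully alike. CCGGAAG was present in 13 of the 40 (32.5%) and in 10.3% of all 35116 listed promoters of the same length, and the 13 included 6 of 8 lid genes and 3 of 6 base ATPases but 0 of 10 genes of the constitutive core rings. TGANNNNGC was present in 25 of 40 (62.5%) against 41.8% of all promoters, GAAANNGAA in 6 of 40 (15%) against 8.11%, and TGANTCA in 1 of 40 (2.5%) against 7.71%. The one match to TGANTCA, in PSMD9, overlaps a match to TGANNNNGC that starts at the same base. A match is a description of the letters and was not compared with binding.

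In the siRNA libraries the targeted gene followed its label. EGFR was at 49.6 ± 0.218 FPKM (mean ± SD, n = 3) with siNC and 29.1 ± 0.666 with siEGFR, a log2 fold change of -0.75 with a standard error of 0.11 (limma, adjusted p = 0.00165). It was at 24.4 ± 3.17 FPKM in control, so siNC was above control (1.00, adjusted p = 4.9e-06) and the siEGFR mean was not below it. EGFR was at 16.7 ± 2.18 FPKM with almonertinib (-0.52, adjusted p = 0.00521) and 25.4 ± 4.26 with EGF (0.05, adjusted p = 0.722), and its almonertinib and siEGFR effects did not differ past the threshold (0.23, adjusted p = 0.355). Read totals behind the libraries ranged from 18009903 to 34908302. The epithelial marker EPCAM was present in every library, from 4.45 to 36.3 FPKM, and all 6 epithelial markers checked were present. Of 5 leukocyte markers 4 stayed below 1 FPKM in every library; the sum of the 5, nearly all CD14, was 30.7 to 40.6 FPKM in control, 35.2 to 41.7 with almonertinib, 36.0 to 39.1 with EGF, 7.38 to 8.05 with siNC and 3.96 to 5.08 with siEGFR. Of 4 fibroblast markers DCN was at or near 0, and the sum of the 4, mostly COL1A2, was 337 to 352 FPKM in control, 358 to 383 with almonertinib, 193 to 214 with EGF, 138 to 146 with siNC and 194 to 196 with siEGFR. The part of these differences in the results below was not tested.

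Subunit mRNAs differed widely in level per length. PSMB4, a structural beta subunit, had the highest mean in every group, from 167 ± 3.56 FPKM in control to 204 ± 13.0 with EGF. Within the alpha ring PSMA7 was at 115 ± 19.3 FPKM in control cells, while PSMA1 was at 3.34 ± 1.11, PSMA6 at 2.05 ± 0.294 and PSMA2 at 0.145 ± 0.095. In GENCODE v29 those 3 low alpha genes share same-strand exon bases with a second protein-coding locus, over 24.7%, 14.1% and 14.6% of their exon length, and the second loci themselves were at or below 0.0737 FPKM. PSMD9, a base chaperone at 0.663 ± 0.0616 FPKM in control cells, shares 19.9% with loci that include CFAP251, which was at 0.774 to 1.53 FPKM. How the authors' counting treated shared bases is not given in the sources used here, and its part in these levels was not tested. PSMB10 shares 34.8% with a locus that reached 0.4 FPKM, and PSMB9 shares 5.66% with PSMB8-AS1, which reached 3.73 FPKM. PSMA8, the alpha subunit of the testis, had no read in any library, which allows up to 3 reads of the total of each; PSMB11, the beta subunit of the thymic cortex, had no read outside 2 almonertinib libraries, where it was at 0.0244 and 0.0268 FPKM.

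With EGF 7 of 7 beta ring, 5 of 6 alpha ring, 6 of 6 ATPase and 8 of 8 lid genes rose, and 0 of 3 immunoproteasome genes did. Of the 42 tested members 33 were higher and 2 lower than in control cells by limma at an adjusted p under 0.05, where 22.0% of all 14999 loci were higher and 27.3% lower. The median log2 fold change was 0.58 over the members and -0.04 over all loci. Here and in every comparison below, more RNA of a gene per cell and more cells of a kind that expresses it cannot be told apart. Fold changes are on the scale of log2(FPKM + 1), which understates the change of genes at a few FPKM.

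In the lid 8 of 8 genes rose with EGF. PSMD14, the deubiquitinase of the lid, was at 4.93, 4.90 and 4.91 FPKM in control and at 10.8, 11.1 and 11.8 with EGF. Every EGF library lay above every control library, and the log2 fold change of 1.05 (standard error 0.06, adjusted p = 2.46e-08) was the largest of the 42 on this scale. With a pseudocount of 0.1 FPKM it was 1.18 and that of PSMC3IP 1.29, and by limma-voom 1.20 and 1.35. PSMD11, a lid scaffold subunit, went from 6.84, 6.01 and 6.04 FPKM to 12.9, 11.8 and 12.7, again without overlap (0.89, adjusted p = 3.6e-07). The smallest rise in the lid was that of PSMD8, 0.41 (adjusted p = 5.67e-05).

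The 6 base ATPases, which drive unfolding, all rose with EGF, by 0.54 to 0.84 on the log2 scale, with PSMC4 (0.78, adjusted p = 6.95e-07) and PSMC3 (0.84, adjusted p = 1.34e-06) the members with the smallest p. Among the other base subunits the scaffolds PSMD1 and PSMD2 rose. PSMD1 was at 6.42, 5.52 and 5.43 FPKM in control and 11.5, 10.6 and 11.2 with EGF (0.84, standard error 0.06, adjusted p = 2.05e-07). PSMD4, a ubiquitin receptor, had 96.8, 144 and 119 FPKM in control and 113, 148 and 127 with EGF, so its groups overlapped and its log2 difference of 0.12 did not pass (adjusted p = 0.478).

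The core showed the same direction. In the beta ring 7 of 7 genes rose, by 0.28 (PSMB4) to 0.67 (PSMB3 and PSMB5). The catalytic PSMB5 was at 94.5, 110.0 and 103 FPKM in control and 152, 170.0 and 169 with EGF, without overlap (0.67, standard error 0.06, adjusted p = 1.79e-06). PSMB6 rose by 0.54 (adjusted p = 0.000168) and PSMB7 by 0.47 (adjusted p = 3.2e-05). In the alpha ring 5 of 6 tested genes rose, with PSMA5 (0.53, adjusted p = 8.22e-06) and PSMA3 (0.79, adjusted p = 0.00023) at the smallest p. PSMA1 did not pass: it had 4.58, 2.45 and 2.99 FPKM in control and 4.70, 3.73 and 5.11 with EGF (0.37, standard error 0.19, adjusted p = 0.138).

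Of the activator genes 3 of 4 rose with EGF: PSME3, the nuclear cap, by 0.69 (adjusted p = 5.34e-06), PSME4, a cap linked to acetylated histones, by 0.64 (adjusted p = 0.00188), and PSME2 by 0.55 (adjusted p = 0.00111). PSME1, which forms a mixed ring with PSME2, was at 57.4 ± 5.90 FPKM in control and 52.5 ± 3.52 with EGF (-0.12, adjusted p = 0.331). Of the base chaperones only PSMD10 passed (0.44, adjusted p = 4.07e-05), while PSMD9 (0.14, adjusted p = 0.0836) and PSMD5 (0.14, adjusted p = 0.398) did not. Summed over the 14 constitutive core genes the level was 824 ± 52.2 FPKM in control and 1211 ± 101 with EGF, and over the 17 cap subunit genes 463 ± 42.3 and 692 ± 46.8.

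**Figure D1:**
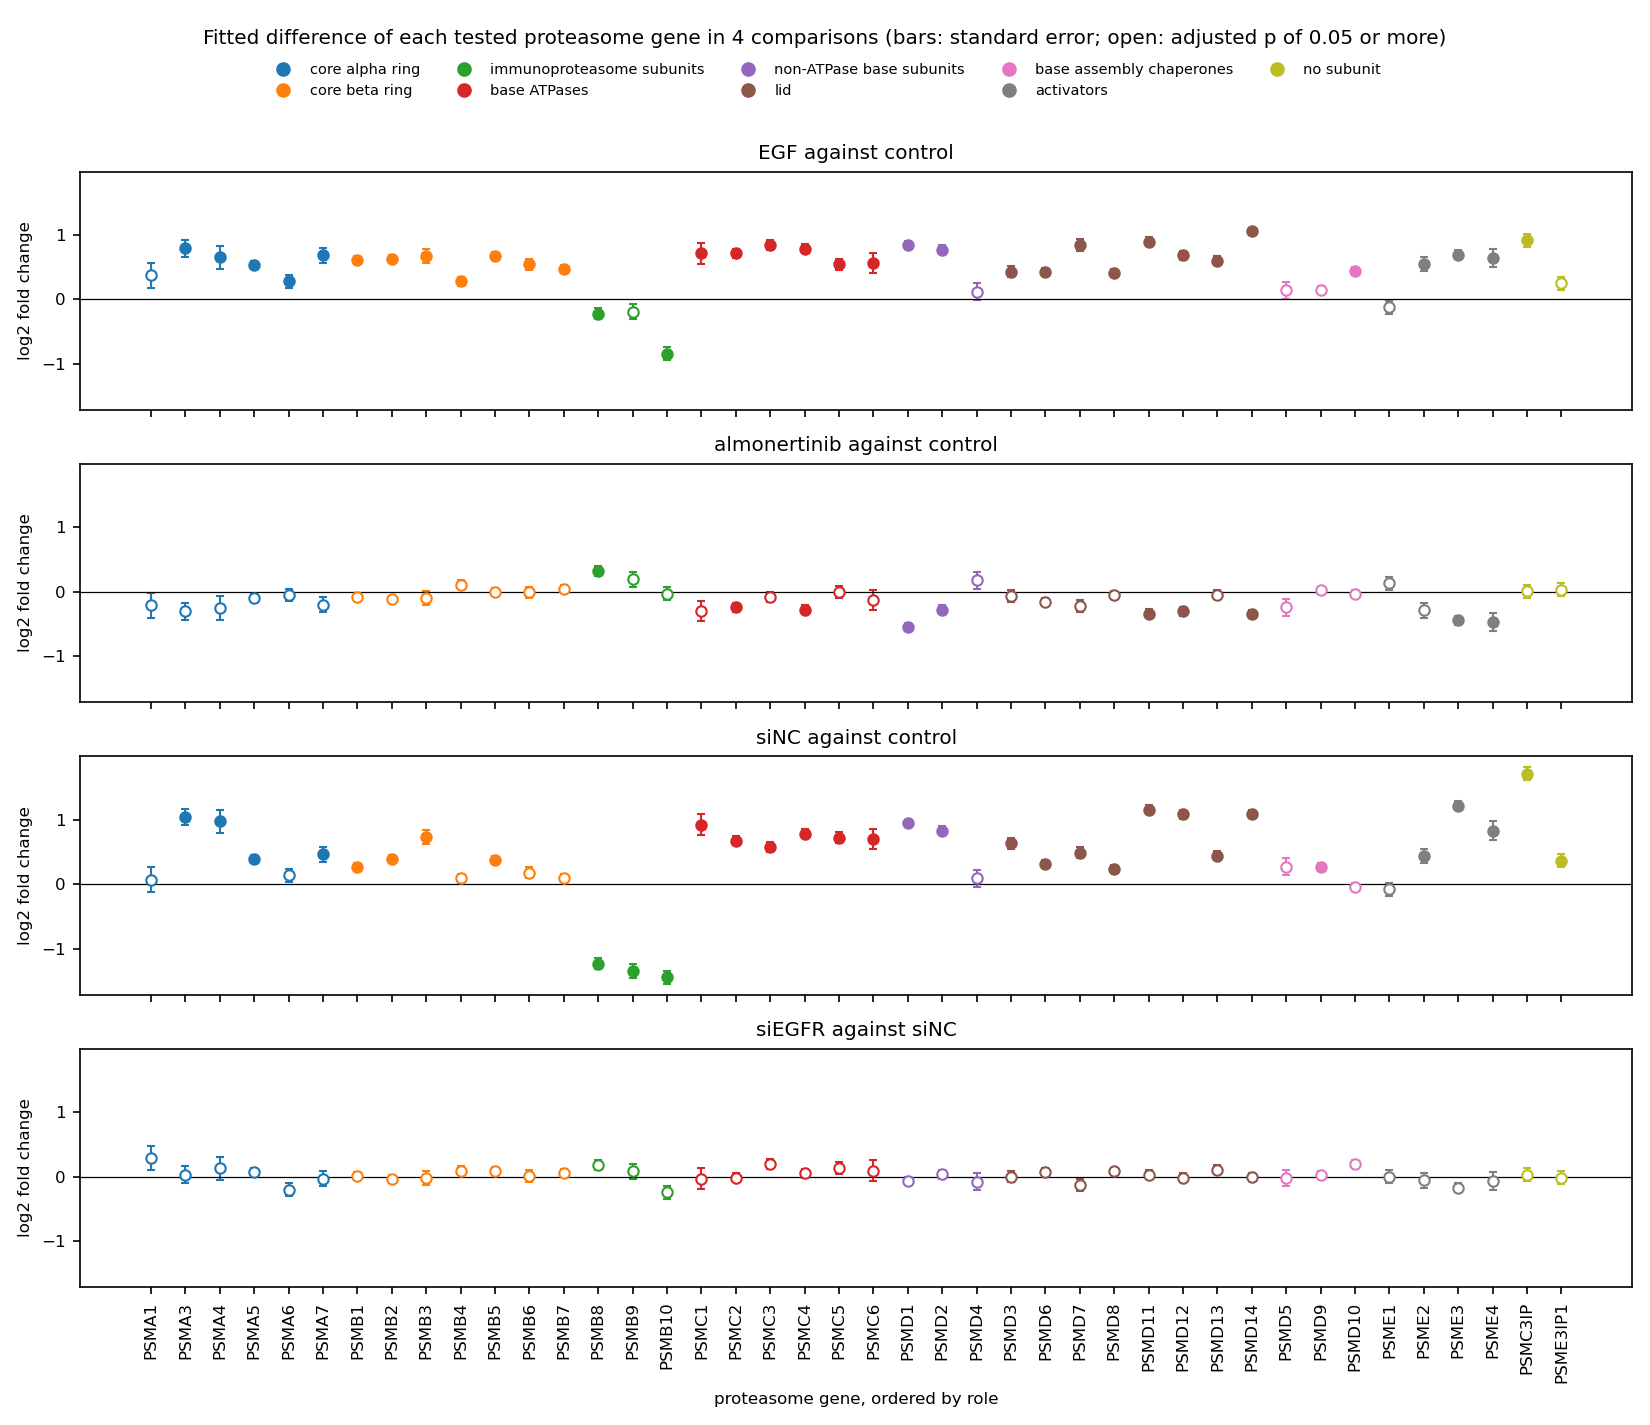
Log2 fold change of each tested proteasome gene (vertical axis, points with standard errors from limma) in 4 comparisons, with genes along the horizontal axis coloured by role and filled points for an adjusted p under 0.05. With EGF 33 of 42 genes lie above 0 as filled points and PSMB8 and PSMB10 lie below it; with siEGFR against siNC no point is filled.

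With almonertinib the genes that fell in the test used here were cap and activator genes, which did not hold under every setting. Against control 9 of 42 members were lower and 1 higher (limma), where 18.0% of all loci were lower and 12.1% higher, so the count of lower members is near that background. The median log2 fold change was -0.10 over the members and -0.06 over all loci. The 9 were PSMD1 and PSMD2 of the base, the ATPases PSMC2 and PSMC4, the lid genes PSMD11, PSMD12 and PSMD14, and the activators PSME3 and PSME4. Of the 13 tested genes of the constitutive core rings 0 passed; under TPM scaling 2 of 7 beta ring and 2 of 6 alpha ring genes were lower, and without control 1 and almonertinib 3 so were 2 of 6 alpha ring genes.

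PSMD1 had the smallest p among them, with 6.42, 5.52 and 5.43 FPKM in control against 3.65, 3.40 and 3.94 with almonertinib, without overlap (-0.54, standard error 0.06, adjusted p = 6.41e-05). PSME3 had 12.6, 10.5 and 11.4 FPKM in control and 8.11, 7.49 and 9.13 with almonertinib (-0.44, adjusted p = 0.000907), and its groups did not overlap either. PSMD14 fell from 4.91 ± 0.0143 to 3.67 ± 0.420 FPKM (-0.34, adjusted p = 0.00145), PSMD11 by 0.34 (adjusted p = 0.00329) and PSMC4 by 0.28 (adjusted p = 0.00738). PSME4 fell by 0.47 (adjusted p = 0.0233), with 7.86, 4.81 and 6.11 FPKM in control and 3.94, 3.60 and 5.08 with almonertinib, so that 1 almonertinib library lay above 1 control library. The catalytic genes did not pass, with PSMB5 at 0.00 (adjusted p = 0.985), PSMB6 at -0.01 (adjusted p = 0.947) and PSMB7 at 0.05 (adjusted p = 0.537) on the log2 scale.

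The 9 lower genes had a median gene length of 7083 bases (2550 to 15795), against 3099 (1168 to 9056) for the 32 members that did not pass, and across the 42 members length and log2 fold change had a Spearman correlation of -0.52, a description over genes that share the same 6 libraries. The same correlation was 0.17 for EGF against control, 0.44 for siNC against control, -0.35 for almonertinib against EGF and -0.14 for siEGFR against siNC. Libraries of one group also differed along length: over the 42 members the deviation from the group mean had a Spearman correlation with length of 0.39 in control 1 and -0.39 in control 2, of 0.23 in almonertinib 3 and -0.35 in almonertinib 2, and of 0.58 in EGF 1 and -0.44 in EGF 2. Gene length here is the one recovered from the FPKM, and for some members it differs from the exon length in GENCODE v29. For PSMD1 it is 15795 bases against 5187, and for PSMC2 8637 against 3547. The part of length in these results was not tested. In a fit of the 6 libraries alone 0 members were higher and 1, PSMD1, was lower, and without almonertinib 3 there were 15 lower. The shares of all loci called in these fits, and under the TPM scaling below, are not reported here. Scaling to TPM gave 16 lower members and moved the median of all loci from -0.06 to -0.12; among all called loci the share that was higher went from 40.2% to 23.6% under TPM and to 53.5% under scaling by the median ratio.

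Set directly against EGF, almonertinib had 35 of 42 members lower and 4 higher (limma), beside 32.6% and 30.0% of all loci. The median log2 difference was -0.68 over the members and -0.03 over all loci. All 13 tested core ring genes, 6 ATPases and 8 lid genes were lower, among them PSMD14 (-1.40, adjusted p = 6.7e-10). The base scaffold PSMD1 was lower too (-1.38, adjusted p = 7.84e-10). PSMA1, which passed in no comparison with control, was lower here by 0.57 (adjusted p = 0.0207), a call lost under 5 of the 24 alternative settings that tested it. The 4 higher genes were PSMB8, PSMB9, PSMB10 and PSME1. PSME1 was higher by 0.25 (adjusted p = 0.0433), and its groups overlapped. Its call was lost under TPM scaling, in a fit of the groups compared alone and without control 1 and almonertinib 3. Without EGF replicate 1 the count of higher members was 2.

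**Figure D2:**
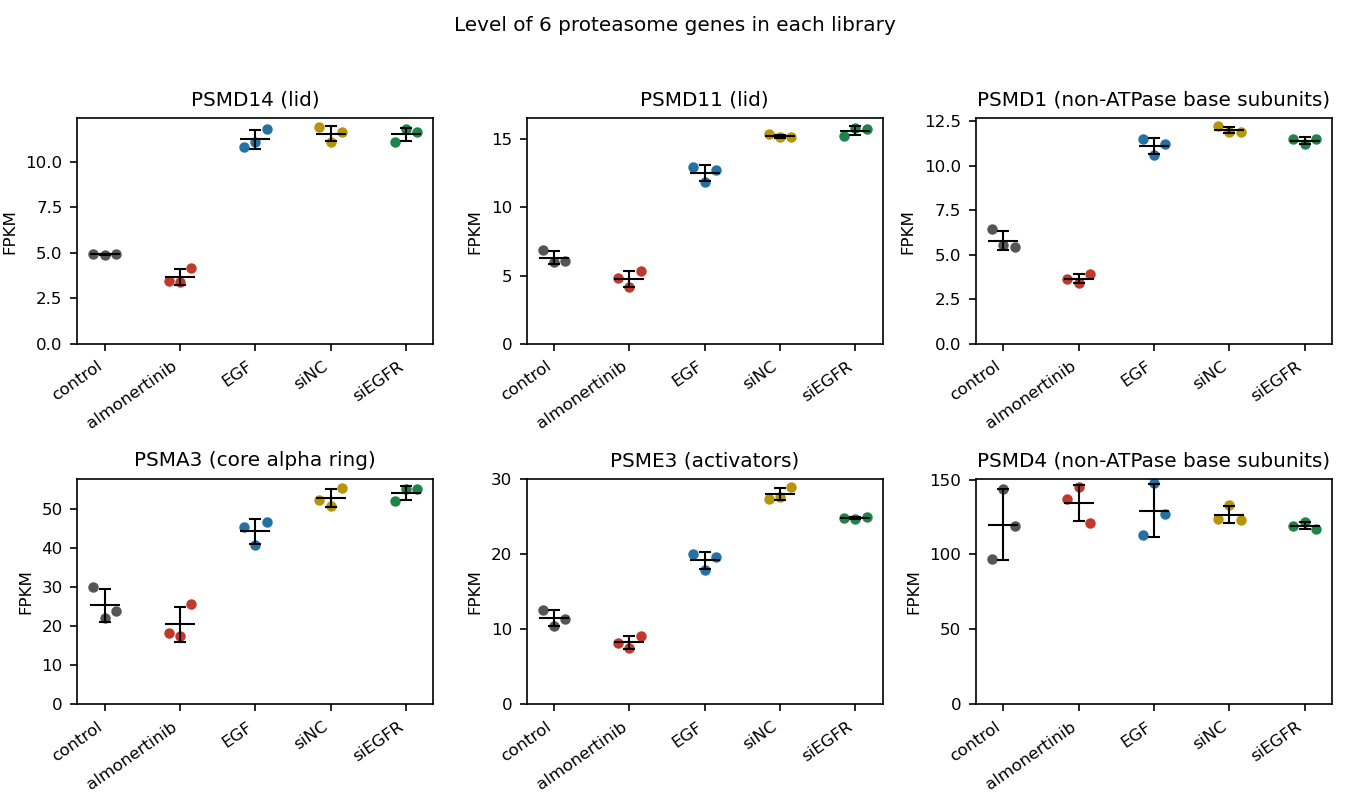
FPKM (vertical axis) of PSMD14, PSMD11, PSMD1, PSMA3, PSME3 and PSMD4 in each library, by group along the horizontal axis; points are libraries, and the horizontal mark and bar are the mean and SD of 3. PSMD14 lies from 3.38 to 4.93 FPKM in control and almonertinib libraries and from 10.8 to 11.9 in the other 9, while the control, almonertinib and EGF libraries of PSMD4 overlap.

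Cells with the control siRNA differed from control cells in most proteasome genes. With siNC 30 of 42 members were higher and 3 lower, where 34.4% of all loci were higher and 31.6% lower, and the median log2 fold change was 0.43 over the members and 0.03 over all loci. The labels do not give the handling of the siRNA groups, so transfection, culture and any difference in preparation cannot be told apart. The epithelial markers did not move together. EPCAM was at 6.58 ± 0.602 FPKM in control and 35.2 ± 1.03 with siNC, and CDH1 at 5.69 ± 0.616 and 16.3 ± 0.518 (mean ± SD, n = 3). The siNC means of KRT18 and NKX2-1 were also above those of control. KRT19, the most abundant, was at 590 ± 59.9 FPKM in control and 335 ± 5.02 with siNC, and KRT8 at 231 ± 26.7 and 228 ± 6.56. The sum of the 6 markers was 883 to 1060 FPKM in control and 815 to 840 with siNC. The part of these differences in the proteasome values was not tested. The EGF and almonertinib comparisons above use the same control libraries as this one.

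In the cap 8 of 8 lid genes and 6 of 6 ATPases were higher with siNC, and 2 of the 3 other base subunits. PSMD11 was at 15.3, 15.1 and 15.1 FPKM against 6.84, 6.01 and 6.04 in control (1.15, standard error 0.07, adjusted p = 1.12e-08). PSMD14 rose by 1.09 (adjusted p = 5.7e-09), PSMD12 by 1.08 (adjusted p = 1.42e-08) and PSMD1 by 0.94 (adjusted p = 2.51e-08). Of the alpha ring 4 of 6 rose, PSMA3 by 1.04 (adjusted p = 1.1e-05) and PSMA4 by 0.97 (adjusted p = 0.000402) the most, while PSMA1 was at 0.07 (adjusted p = 0.771). In the beta ring 4 of 7 rose: PSMB5 did, by 0.38 (adjusted p = 0.000136), and PSMB6 (0.18, adjusted p = 0.0805) and PSMB7 (0.09, adjusted p = 0.216) did not pass. Under TPM scaling 7 of 7 beta ring genes were higher.

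Activators showed 3 of 4 higher with siNC. PSME3 was at 27.4, 27.7 and 29.0 FPKM, above every control library (1.21, adjusted p = 1.05e-08). PSMC3IP, a recombination cofactor named after its binding to PSMC3, had the largest rise of the 42, from 1.29, 1.37 and 1.31 FPKM in control to 6.76, 6.64 and 6.43 (1.71, adjusted p = 6.09e-09). It also rose with EGF, to 3.46, 3.16 and 3.51 (0.91, adjusted p = 5.56e-06). Its exons overlap those of MLX on the other strand over 29.9% of their length, and the strand setting of the counting is not given in the sources used here. Other members overlap loci on the other strand too, among them PSMC1 (75.8%), PSMD7 (30.7%), PSMB8 (20.6%) and PSMC5 (19.5%). The part of such overlap in the values was not tested.

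Knockdown of EGFR moved no proteasome gene past the threshold. Against siNC 0 of 42 members were higher and 0 lower (limma), beside 2.27% and 3.19% of all loci, so both counts are near that background. The median log2 fold change was 0.02 over the members and 0.01 over all loci. At an unadjusted p under 0.05 there were 3 higher and 2 lower, and limma-voom on the reads behind the FPKM called 0 in each direction. The member with the smallest adjusted p was PSMD10, at 21.4 ± 0.631 FPKM with siNC and 24.5 ± 0.829 with siEGFR (0.19, standard error 0.06, adjusted p = 0.0961). PSMD14 was at 11.6 ± 0.401 and 11.5 ± 0.337 FPKM, and PSMD1 at 12.0 ± 0.193 and 11.4 ± 0.184 (-0.07, adjusted p = 0.655). A fit of the 6 siRNA libraries alone called 4 higher and 2 lower, and the share of all loci called in that fit is not reported here.

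The difference between the almonertinib effect and the siEGFR effect was tested as an interaction. It passed for 4 members, all lower: PSMD1 (-0.47, standard error 0.09, adjusted p = 0.00394), PSMD14 (-0.34, adjusted p = 0.0231), PSMD11 (-0.38, adjusted p = 0.0248) and PSMC4 (-0.34, adjusted p = 0.0316). Over all loci 7.71% were lower and 5.95% higher in this test, so the count of lower members is near that background. The share of called loci that was higher went from 43.5% to 27.2% under TPM scaling and to 57.8% under median-ratio scaling. No member was higher, also at an unadjusted p under 0.05 or by limma-voom, and the count of lower members ranged from 1 to 11 when single libraries were left out: 1 without siNC 2, siNC 3, siEGFR 2 or siEGFR 3, 2 without almonertinib 1, 7 without control 2 and 11 without almonertinib 3. The shares of all loci called with those libraries left out are not reported here. PSMD1 passed under all 25 alternative settings. Across the 42 members this difference had a Spearman correlation with gene length of -0.46, whose part in the result was not tested.

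The immunoproteasome genes followed another order of groups than the rest of the core. PSMB8, which replaces PSMB5, was at 31.1, 39.2 and 37.2 FPKM in control, 44.4, 45.6 and 44.2 with almonertinib, 28.5, 32.8 and 30.0 with EGF, 14.2, 15.4 and 14.2 with siNC, and 16.5, 17.1 and 16.4 with siEGFR. The almonertinib libraries lay above all others, EGF overlapped control, and the 6 siRNA libraries lay below all others. PSMB8 was the one member higher with almonertinib (0.32, standard error 0.08, adjusted p = 0.00835). It was lower with EGF by 0.22 (adjusted p = 0.0271), a call lost under 7 of 25 alternative settings, with adjusted p from 0.000791 to 0.18. Without control 2, control 3, EGF 1 or EGF 3 the count of members lower with EGF was 1 in place of 2.

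PSMB9, which replaces PSMB6, was at 31.2, 42.3 and 37.7 FPKM in control, 43.1, 45.6 and 37.7 with almonertinib and 29.0, 37.1 and 30.8 with EGF. These 3 groups overlapped, and neither difference from control passed (0.19, adjusted p = 0.224, and -0.19, adjusted p = 0.182). With siNC it was at 13.9, 14.7 and 13.1 FPKM, below every library of the first 3 groups (-1.34, standard error 0.11, adjusted p = 2.75e-07).

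PSMB10, which replaces PSMB7, fell with EGF. It was at 12.3, 9.99 and 11.1 FPKM in control and at 5.71, 5.80 and 5.76 with EGF, without overlap (-0.84, standard error 0.10, adjusted p = 1.01e-05). Almonertinib left it at 9.77, 10.6 and 12.3 (-0.03, adjusted p = 0.827). The siNC libraries had 3.25, 3.94 and 3.21 FPKM (-1.44, adjusted p = 2.88e-08), and the siEGFR libraries 2.61, 2.59 and 3.15. All 3 immunoproteasome genes were thus lower with siNC than in control, PSMB8 by 1.23 (adjusted p = 1.34e-08), and none differed past the threshold between siEGFR and siNC.

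**Figure D3:**
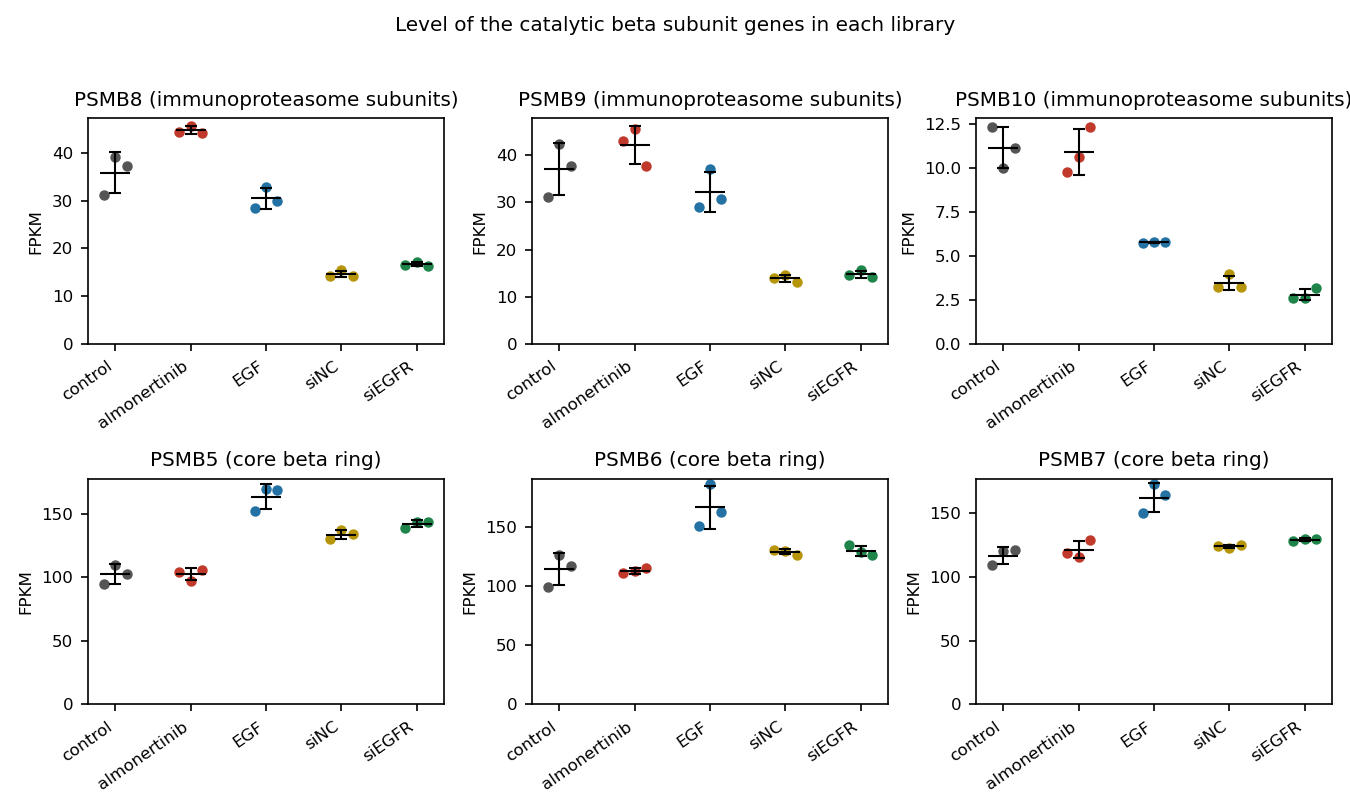
FPKM (vertical axis) of the immunoproteasome genes PSMB8, PSMB9 and PSMB10 and of their constitutive counterparts PSMB5, PSMB6 and PSMB7 in each library, by group along the horizontal axis; points are libraries, and the horizontal mark and bar are the mean and SD of 3. PSMB10 lies from 9.77 to 12.3 FPKM in control and almonertinib libraries and from 2.59 to 5.80 in the others, while PSMB5 is highest with EGF.

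As a share of each catalytic pair's summed FPKM, PSMB8 made up 25.9 ± 0.945% of PSMB5 plus PSMB8 in control (mean ± SD, n = 3), 30.5 ± 1.33% with almonertinib, 15.7 ± 0.540% with EGF, 9.84 ± 0.281% with siNC and 10.5 ± 0.211% with siEGFR. The share of PSMB9 in its pair with PSMB6 was 24.4% in control, 27.1% with almonertinib, 16.2% with EGF, 9.71% with siNC and 10.2% with siEGFR. PSMB10 held 8.74% of its pair with PSMB7 in control, 8.24% with almonertinib, 3.44% with EGF, 2.72% with siNC and 2.11% with siEGFR. In each pair the 3 EGF libraries lay below the 3 control libraries. These shares were not tested. They are shares of mRNA per length; counted in reads, without division by gene length, PSMB8 held 43.9% of its pair in control.

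**Figure D4:**
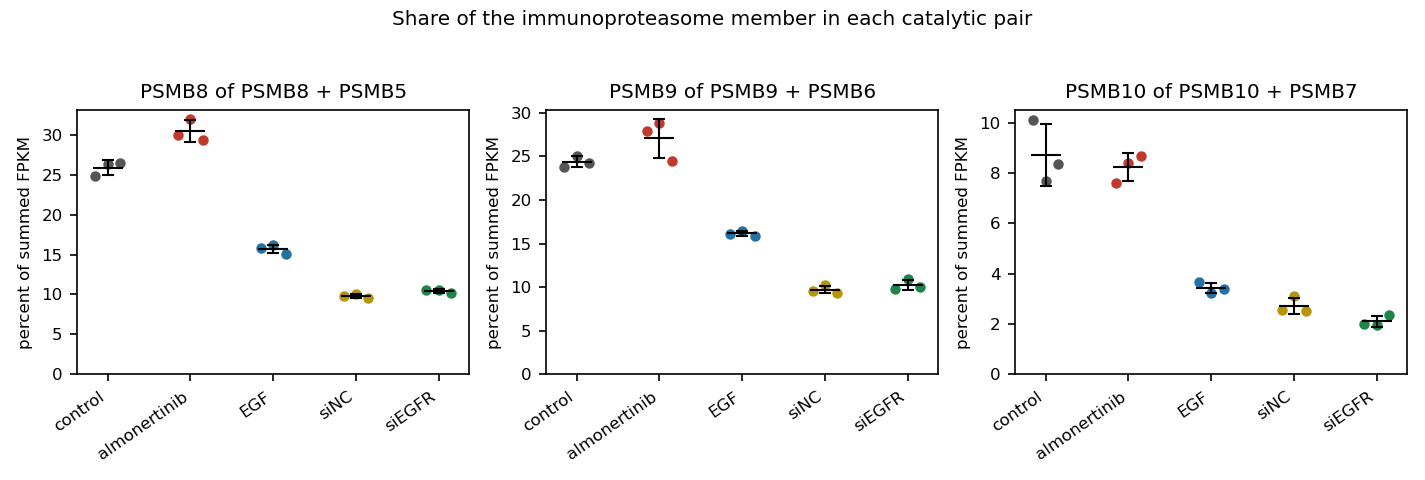
Share of PSMB8, PSMB9 and PSMB10 in the summed FPKM of the pair with PSMB5, PSMB6 and PSMB7 (vertical axis, percent) in each library, by group along the horizontal axis; points are libraries, and the horizontal mark and bar are the mean and SD of 3. The PSMB8 share lies from 24.8% to 26.5% in control, from 15.1% to 16.2% with EGF and from 9.58% to 10.6% in the siRNA libraries.

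Genes around the proteasome were read from lists in the same fit. Over all loci 22.0% were higher and 27.3% lower with EGF, 12.1% and 18.0% with almonertinib, and 34.4% and 31.6% with siNC. For siEGFR against siNC these shares were 2.27% and 3.19%. Of 12 genes of peptide loading and class I presentation, 9 were lower and 1 higher with EGF, 11 lower and 1 higher with siNC against control, and 7 higher and 1 lower with almonertinib; siEGFR against siNC had 0. The list's median log2 fold change was -0.40, -1.47 and 0.23 in the first 3. HLA-E, a class I molecule, was at 206 ± 10.7 FPKM in control, 272 ± 6.19 with almonertinib (0.40, adjusted p = 0.000106), 119 ± 4.09 with EGF (-0.79, adjusted p = 3.81e-08) and 51.5 ± 1.36 with siNC (-1.98, adjusted p = 5.58e-12). NLRC5, the transactivator of class I genes, went from 15.7 ± 0.694 to 7.51 ± 0.373 FPKM with EGF (-0.97, adjusted p = 3.83e-06). TAP2, a subunit of the peptide transporter, moved the other way from the list: it rose with EGF from 1.88 ± 0.233 to 3.82 ± 0.435 FPKM (0.74, adjusted p = 3.79e-06) and fell with almonertinib by 0.52 (adjusted p = 0.000374). Class I genes are near-identical paralogs, and how the counting divided their shared reads is not given in the sources used here.

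Interferon signalling genes did not move as 1 list. With EGF 3 of 12 tested were lower and 2 higher, near the 27.3% and 22.0% of all loci. With almonertinib 5 were lower and 1 higher, beside 18.0% and 12.1% of all loci. With siNC 6 were higher and 4 lower, beside 34.4% and 31.6%. STAT2, a transducer of interferon signals, was at 16.8 ± 1.88 FPKM in control, 22.0 ± 1.92 with almonertinib (0.37, adjusted p = 0.00298) and 6.93 ± 0.208 with EGF (-1.16, adjusted p = 5.53e-08). IRF1, an activator of immunoproteasome genes, fell with almonertinib from 2.0 ± 0.196 to 1.42 ± 0.0569 FPKM (-0.31, adjusted p = 0.00288). OAS1, an interferon-induced gene, was lower with siEGFR than with siNC by 0.68 (adjusted p = 1.1e-05).

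Assembly factors and subunits with other names followed the constitutive genes with EGF, 5 of 9 higher and 0 lower, beside 22.0% and 27.3% of all loci. They were led by ADRM1, a ubiquitin receptor of the cap (0.70, adjusted p = 6.87e-06), and the core chaperones PSMG3 (0.70, adjusted p = 1.08e-05) and PSMG1 (0.72, adjusted p = 1.61e-05). With almonertinib 0 of 9 passed, with 0 of 9 also for siEGFR, and with siNC 6 were higher and 1 lower, beside 34.4% and 31.6% of all loci. Of 13 associated enzymes and shuttle factors 8 rose with EGF and 0 fell. With almonertinib 8 fell and 0 rose, beside 18.0% and 12.1% of all loci. USP14, a deubiquitinase of the cap, was at 9.70 ± 1.05 FPKM in control and 6.94 ± 0.712 with almonertinib (-0.43, adjusted p = 0.00136), and DDI2, the protease that activates NRF1, fell by 0.42 (adjusted p = 0.00504).

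Of 9 tested genes of transcription control 3 rose and 0 fell with EGF, where 22.0% of all loci rose and 27.3% fell. Those that rose included MAFF, a partner of NRF factors (0.86, adjusted p = 7.46e-08), and VCP, a segregase upstream of the proteasome (0.42, adjusted p = 0.000112). MAFF fell with almonertinib by 0.46 (adjusted p = 0.000113), the 1 call in that list. Among 8 NRF2 target genes 3 rose and 1 fell with EGF, beside the same shares of all loci: HMOX1 rose (0.66, adjusted p = 1.18e-05) and TXNRD1 fell by 0.63 (adjusted p = 2.43e-05). HMOX1, a heme-degrading enzyme, was at 9.74 ± 1.40 FPKM in control, 58.9 ± 0.897 with siNC and 92.3 ± 2.14 with siEGFR, and it was the 1 NRF2 target that passed between the siRNA groups (0.64, adjusted p = 0.000259). Of 8 genes of ubiquitin and its activation 2 rose and 0 fell with EGF, so the count that rose is near that background. With almonertinib 1 rose and 1 fell, near the 12.1% and 18.0% of all loci. UBA6, a ubiquitin-activating enzyme, rose with EGF (0.67, adjusted p = 0.00436) and was the gene of that list that fell with almonertinib (-0.47, adjusted p = 0.0495).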

How the data were processed

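RNA of NCI-H1975 cells was isolated with TRIzol, poly(A) RNA was selected on oligo(dT) beads and paired-end libraries were made, per the labels' protocols. The build hg19 and the tools featureCounts, HISAT2 and DESeq2 are listed, with no version or role, in the submitters' processing notes. The authors deposited FPKM values of 61248 loci in 15 libraries. Symbols came from a list by Ensembl ID, which matched 60463 loci, and gene type and exon overlap from GENCODE v29. Unrounded FPKM are whole multiples of the value of 1 read, and 100.0% of positive values gave whole reads within 0.01, so read totals are known; they served a limma-voom alternative. Division by gene length and total means that a change in a few abundant genes shifts all others.

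Loci with at least 1 FPKM in at least 3 libraries were fitted as log2(FPKM + 1) in limma 3.58.1 (R 4.3.3), using a variance trend, robust moderation and 1 coefficient per group over all 15 libraries (10 residual degrees of freedom). Tests were two-sided, with Benjamini-Hochberg adjustment over all 14999 loci and a threshold of 0.05. Rose, fell, higher and lower refer to genes past it. The scripts were tested on simulated data. Promoters came from RefSeq, build GRCh38.p14.

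The members and lists were chosen with earlier results of these data known. The rule for named genes gives PSMA1, PSMD1, the 3 immunoproteasome genes, PSMB5, PSMB6 and PSMB7, per comparison and role the 2 members with the smallest p, and up to 3 genes per list; further examples were picked with their values known. In 25 alternative settings the pseudocount, filter, scaling, libraries in the fit, variance trend, replicate block and unit were changed, and each library was left out in turn. Some genes counted in the pathway lists are not reported by name here.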

Additional observations from a re-analysis of the deposited data

How the results depend on the processing

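The counts of members higher with EGF (33) and with siNC (30), lower with siNC (3) and lower with almonertinib than with EGF (35) stayed within 1.5 times under all 25 settings. Of 134 single-gene results, 76 kept their direction and their side of the threshold under every setting. Members higher and lower with almonertinib were 1 and 9. In a fit of the groups compared alone they were 0 and 1, under TPM scaling 16 were lower, and without both control 1 and almonertinib 3 (2 libraries that stood apart in earlier work on these data) 14 were lower; leaving out single libraries gave 1 to 2 higher and 7 to 15 lower. Members lower with EGF were 1 in place of 2 without a filter, under median-ratio scaling and in the groups compared alone, and 1 to 3 with single libraries left out. For siEGFR against siNC the groups compared alone gave 4 higher and 2 lower, and the fit without control 1 and almonertinib 3 gave 1 higher; single libraries left out gave 0 to 1 higher. Members higher with almonertinib than with EGF were 2 to 4 with single libraries left out. The difference between the almonertinib and siEGFR effects had 4 lower members, 1 without a filter, 12 under TPM scaling, 2 under median-ratio scaling, 12 without control 1 and almonertinib 3, and 1 to 11 with single libraries left out. The cause of these changes was not tested, except that fits with fewer libraries have fewer degrees of freedom. Shares of all loci called under the alternative settings are not reported here, so these counts cannot be set beside a background.

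With the replicate number as a block, that difference had 7 lower members, and no other count of calls moved by over 1.5 times. Deviations of same-numbered libraries correlated from -0.17 to 0.60, and in no comparison did every pair exceed 0.1, so the libraries were not treated as paired. Replicate 2 of control, almonertinib and EGF correlated at 0.53 to 0.60 with each other, control 1 with EGF 1 at 0.55 and almonertinib 3 with EGF 3 at 0.44. Whether these libraries share a source was not tested.

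Log2 values near 0, which passed under no setting that turned them, changed sign as follows. For almonertinib against control, median-ratio scaling gave PSMB10 0.06, PSMB5 0.09, PSMB6 0.09 and PSMD10 0.07, TPM scaling gave PSMB7 -0.03, PSMC3IP -0.04 and PSME3IP1 -0.05, and the fit without control 1 and almonertinib 3 gave PSMB7 -0.04 and PSMC3IP -0.13. For siEGFR against siNC, median-ratio scaling gave PSMB6 -0.01. For the difference between those effects, median-ratio scaling gave PSMB1 0.02, PSMB5 0.02, PSMB6 0.09, PSMB7 0.11 and PSMC3IP 0.05, and TPM scaling gave PSME3IP1 -0.03. With single libraries left out the ranges were, for almonertinib against control, PSMB10 -0.11 to 0.04, PSMB5 -0.06 to 0.05, PSMB6 -0.10 to 0.07, PSMC3IP -0.12 to 0.13, PSMD10 -0.08 to 0.01 and PSME3IP1 -0.07 to 0.13; for siNC against control, PSMA1 -0.08 to 0.27; for siEGFR against siNC, PSMB6 -0.02 to 0.03, PSMD9 0.00 to 0.06 and PSME3IP1 -0.05 to 0.01; and for the difference between effects, PSMB6 -0.11 to 0.06, PSMB7 -0.05 to 0.03, PSMB9 -0.01 to 0.20, PSMC3IP -0.15 to 0.11 and PSME3IP1 -0.05 to 0.15. Counted in reads in place of FPKM, the control shares of PSMB8, PSMB9 and PSMB10 in their pairs were 43.9%, 42.7% and 8.01%.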
